A study of Mus musculus with 8 samples.

Results

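The comparison described here is between white adipocytes of mice that lack YAP and TAZ in adipocytes and those of wild-type mice, both on a high-fat diet (HFD). Of the 8 libraries of the series, the 4 from HFD were compared: 2 labelled Ad-Yap/Taz-KO (KO below) and 2 labelled WT. Primary white adipocytes had been isolated from epididymal white adipose tissue after 4 weeks on the diet, and their total RNA was sequenced. The design text starts the diet at an age of 5 weeks, and the methods give another starting age. KO mice carry floxed Yap and Taz alleles and Cre under the Adipoq promoter, which is active in mature adipocytes, and the study used male mice on a C57BL/6 background. The controls are labelled wild-type and were littermates, and the methods name floxed littermates as controls only for the tamoxifen-inducible line of the study. Whether the wild-type mice used here held floxed alleles is not given in the sources used here. The other 4 libraries came from KO and WT mice on standard diet (SD). They were used for the shared estimate of spread, the mean limits for testing and naming genes, and the alternative scalings. They also entered the test of whether a difference on HFD differs from that on SD. Of 30387 genes in the table, the 18800 whose mean over the 8 libraries reached 5 normalized counts were tested, and the results are ordered by pathway, cell type and gene family.

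YAP and TAZ (the latter encoded by Wwtr1) are transcriptional coactivators that have no DNA-binding domain and act on genes mainly through the TEAD transcription factors. The kinases of the Hippo pathway, MST and LATS, phosphorylate them and keep them in the cytoplasm, while cell spreading and stiff surroundings favour their entry into the nucleus. White adipocytes store triglyceride in a large lipid droplet, enlarge when energy intake is high, and secrete hormones such as leptin and adiponectin. When adipocytes die, macrophages gather around the remains and take up the lipid.

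Depth was 18.4 and 18.7 M reads on genes in the KO libraries and 22.3 and 19.6 M in the WT libraries, estimated from the smallest steps of the deposited values, and 14 to 16 M in the SD libraries. The WT libraries lay unusually close together. The spread between them was 4.88 times that of Poisson counting for genes of 5 to 20 reads and 6.2 times for genes of 1000 to 5000 reads, whereas the ratio rose from 4.74 to 92.6 between the KO libraries. Whether these are separate samples could not be settled from the values, and the p-values below treat them as 2. The pair was therefore also counted as 1 sample, and the counts of that fit stand beside most of the lists that lost a large part of their calls in it. Levels below are normalized counts, with replicate 1 before replicate 2, and a call needed an adjusted p by limma (Benjamini-Hochberg) no higher than 0.05 together with a log2 fold change of 0.59 or more in size. By this rule 6053 genes (32.2%) differed, 3213 higher (17.1%) and 2840 lower (15.1%) in KO. With WT as 1 sample 1914 were higher (10.2%) and 1531 lower (8.14%). Scaling matters here. The desaturase gene Scd1 alone held 12.4% and 12.3% of all WT counts but 2.92% and 1.73% of the KO counts, and its part in the effect of scaling was not tested. Equal totals in all libraries, the alternative called scaling to the same total below, moved the median log2 fold change of all genes from 0.095 to 0.467 and gave 4617 genes higher (24.6%) and 1367 lower (7.27%).

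Gene lists of 66 pathways, families and cell types, holding 1672 distinct genes, included lipid synthesis, caveola and adipocyte lists with most members lower in KO and macrophage, MHC class II, Toll-like receptor and cell cycle lists with most members higher. More members were higher than lower in 36 lists and more were lower in 26, the latter number falling to 14 after scaling to the same total. Among lists of 10 or more tested members, those with the highest share called lower were the adipocyte markers (75.0%), de novo lipogenesis (73.7%), caveolae (72.7%) and branched-chain amino acid breakdown (72.7%), against 15.1% of all genes. Those with the highest share called higher were the MHC class II pathway (80%), the Toll-like receptor and inflammasome genes (74.1%), the macrophage markers (72.7%) and the lipid-associated macrophage markers (72.7%), against 17.1% of all genes.

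**Figure D1:**
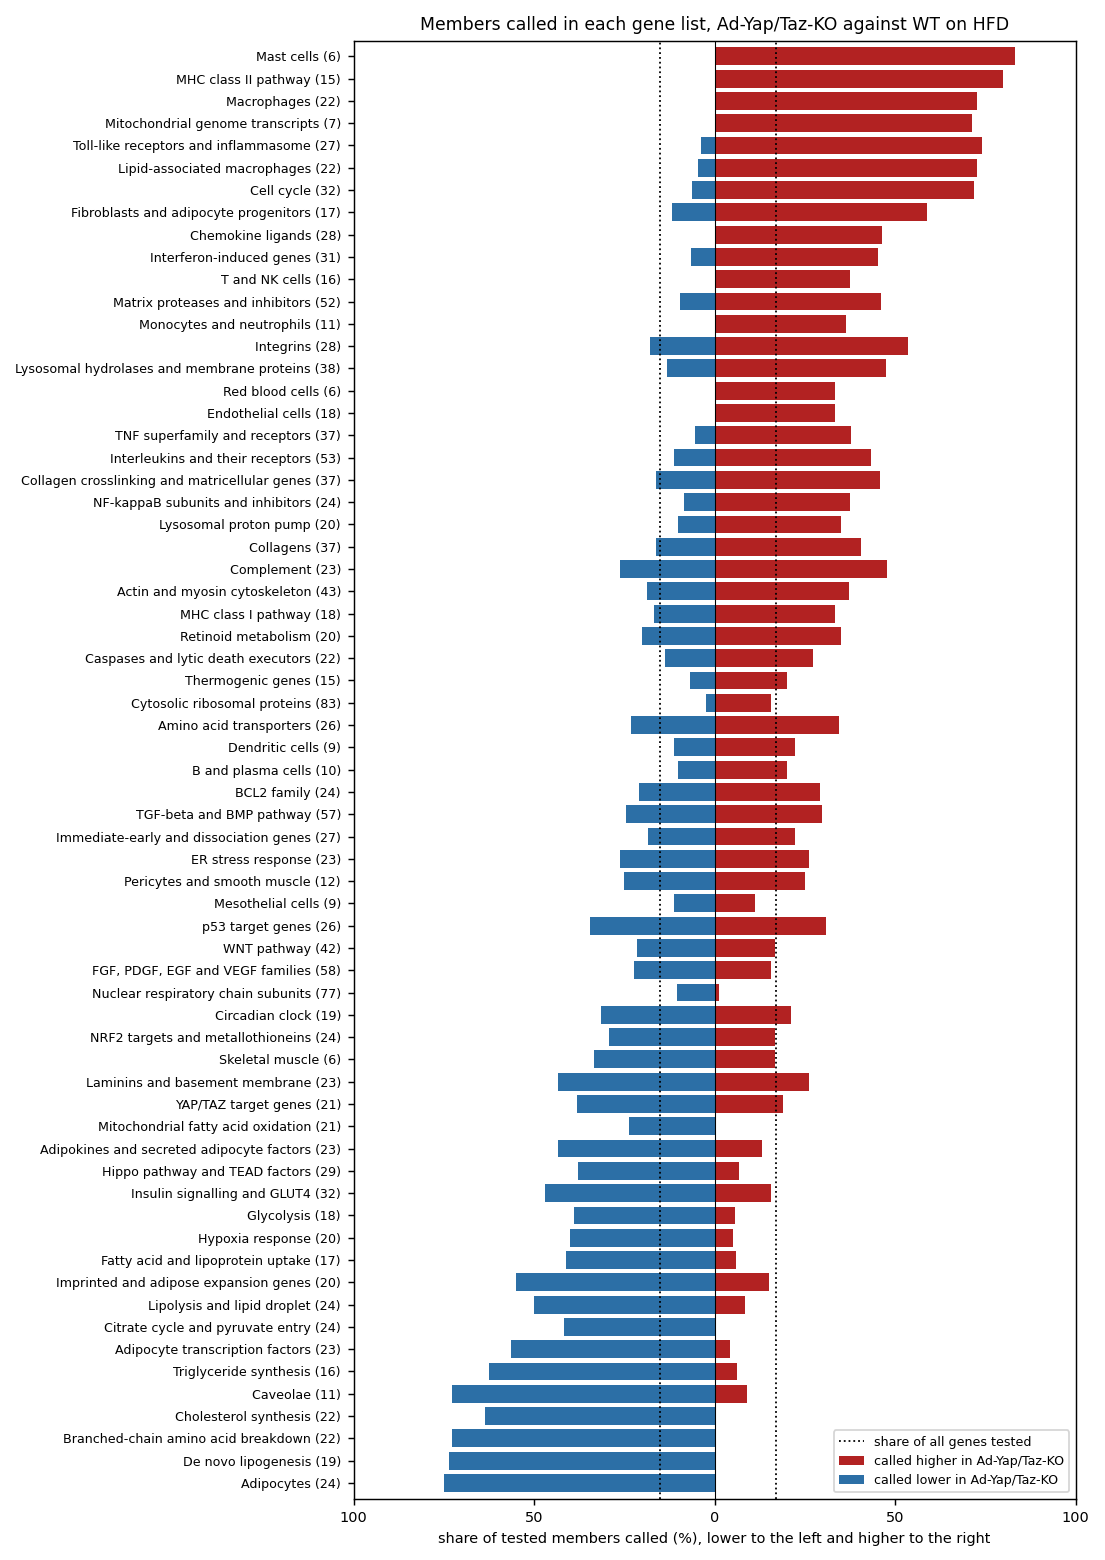
Share of tested members of each gene list called higher (red, right) and lower (blue, left) in KO against WT on HFD, with the number of tested members in brackets and dotted lines at the shares of all genes (17.1% higher, 15.1% lower). Lists with fewer than 6 tested members are left out. Lipid, caveola and adipocyte lists lie at the bottom and immune, macrophage and cell cycle lists at the top, and the lists near the middle include several whose majority turns under another scaling, as given beside them in the text.

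The targeted genes were examined first. Wwtr1 stood at 7121 and 6807 normalized counts in WT and at 2060 and 2707 in KO (log2 fold change -1.56 ± 0.18 SE, adjusted p = 3.1e-05). The groups did not overlap in this gene, as in 69.6% of all genes tested, a share that applies wherever a lack of overlap is given below. Yap1 had 2468 and 2333 in WT and 1549 and 2068 in KO and did not pass the test (log2 fold change -0.42 ± 0.16 SE, adjusted p = 0.059). These are counts over whole genes, so they also hold reads from exons outside the deleted part and from other cells.

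Of 29 genes of the Hippo pathway, 11 were lower and 2 higher in KO, with 8 lower when WT counted as 1 sample, 4 higher without KO replicate 1, and 5 lower against 4 higher after scaling to the same total. The angiomotins, scaffold proteins that bind YAP and TAZ, showed the clearest falls. Amotl1 stood at 10695 and 10567 normalized counts in WT and at 5136 and 3670 in KO, and Amotl2 had 7068 and 7075 and 1731 and 1424 (log2 fold changes -1.29 ± 0.19 and -2.17 ± 0.18 SE). In both genes every KO library lay below every WT library. The TEAD factor Tead1 was called lower (3627 and 4190 against 2172 and 2159, log2 fold change -0.85), a call that was lost after scaling to the same total, while Tead2, Tead3 and Tead4 did not pass the test. Among the kinases, Lats1 and Lats2 were called lower at log2 fold changes of -0.60 and -0.65, and both calls were lost with WT as 1 sample, whereas Stk3 and Stk4, which encode the MST kinases, did not pass the test. The TAO kinase gene Taok3 rose from 450 and 458 to 1758 and 1708 normalized counts and the FERM-domain gene Frmd6 from 216 and 302 to 1178 and 1475, with log2 fold changes of 1.93 and 2.36.

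Of 21 tested genes on a list of widely used YAP/TAZ targets, 8 were lower and 4 higher in KO, a majority that turned to 6 higher and 4 lower after scaling to the same total (3 higher and 5 lower with WT as 1 sample, 5 lower without WT replicate 2). The matricellular gene Cyr61 stood at 10496 and 10339 normalized counts in WT and at 3057 and 3288 in KO, and the phosphatase gene Ptpn14, itself a restraint on YAP, had 2807 and 2870 and 1756 and 1372 (log2 fold changes -1.72 and -0.87). Ptpn14 lost its call after scaling to the same total and Cyr61 did not. Ctgf, a target used as often as Cyr61, had 203 and 242 in WT and 98 and 185 in KO and did not pass the test (log2 fold change -0.71 ± 0.41 SE, adjusted p = 0.2). Other members of the list rose strongly. The receptor tyrosine kinase gene Axl stood at 434 and 575 normalized counts in WT and at 3040 and 3310 in KO, a log2 fold change of 2.66 ± 0.20 SE. The membrane repair gene Myof stood at 392 and 458 in WT and at 3929 and 3701 in KO, a log2 fold change of 3.17 ± 0.18 SE. Axl is also expressed by macrophages, whose marker sum rose from 4634 and 4642 to 41830 and 39639 normalized counts (16 of 22 markers higher, none of the defining ones at 0), and their part in this rise was not tested.

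Because TEAD factors recognise the letters GGAATG, the promoter windows of the target list were searched for that motif on both strands (GGAATG or CATTCC). RefSeq promoter windows (from upstream of the start to just after it, GRCm38.p6) matched 15 of the 22 list members, of which 7 held the motif (46.7%), against 16.6% of all genes with a window. The 60 bases around the motif are shown for 3 members that were lower and for Axl, which was higher, with the motif in capitals, 5′ to 3′ on the strand of the gene.
Cyr61 (chr3:145650056-145650115, minus strand): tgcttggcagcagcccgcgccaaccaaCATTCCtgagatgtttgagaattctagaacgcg
Amotl2 (chr9:102717712-102717771, plus strand): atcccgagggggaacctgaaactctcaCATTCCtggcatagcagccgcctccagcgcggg
Ptpn14 (chr1:189728095-189728154, plus strand): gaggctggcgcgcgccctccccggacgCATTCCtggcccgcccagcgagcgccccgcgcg
Axl (chr7:25788924-25788983, minus strand): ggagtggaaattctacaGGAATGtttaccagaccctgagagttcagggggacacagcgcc
The motif starts 103 bases before the transcription start in Cyr61, 65 in Amotl2, 146 in Ptpn14 and 233 in Axl. The window of Axl holds the motif as GGAATG and the other windows shown hold it as CATTCC, and a match in these windows is a description and not a measured binding site.

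Adipocyte identity genes were lower in KO. Of 24 adipocyte markers, 18 were lower and none higher, with a median log2 fold change of -1.30 against 0.095 over all genes, and 16 stayed lower with WT as 1 sample. Summed over the list, the levels of the markers came to 884926 and 879164 in WT and to 497687 and 280434 in KO. In bulk RNA, fewer cells of a type and less RNA per cell cannot be told apart. KO replicate 2 was the lower of the KO libraries in this sum, and also in the summed levels of the lipid synthesis, storage and uptake lists described below.

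Adiponectin and the proteins of the lipid droplet were among the genes that fell. Adipoq, which encodes adiponectin, stood at 54830 and 53308 normalized counts in WT and at 27322 and 13284 in KO (log2 fold change -1.5 ± 0.29 SE, adjusted p = 0.0017). Plin1, the perilipin that coats the droplet and gates lipolysis, had 56852 and 57222 and 23643 and 12435, and Cidec, which promotes droplet fusion, had 53794 and 55262 and 22406 and 7501. In each of these genes both KO libraries lay below both WT libraries (log2 fold changes -1.73 and -2.07 for Plin1 and Cidec). By contrast the fatty acid chaperone gene Fabp4 had 64916 and 56520 in WT and 64080 and 36542 in KO, and did not pass the test (log2 fold change -0.32 ± 0.29 SE). The fatty acid receptor gene Cd36, at 60546 and 61967 in WT and 56019 and 45203 in KO, did not pass it either (log2 fold change -0.28 ± 0.19 SE).

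Transcription factors of the adipocyte programme followed, with 13 of 23 lower and 1 higher (10 lower and none higher with WT as 1 sample, 8 lower and 3 higher after scaling to the same total). Pparg, the master regulator of adipocyte differentiation, fell from 4129 and 4020 to 1819 and 1523 normalized counts (log2 fold change -1.29 ± 0.17 SE, adjusted p = 0.0001). Cebpa, its partner, fell from 10206 and 10618 to 6380 and 3061 (log2 fold change -1.24). Nfe2l1, a stress-responsive factor abundant in adipocytes, fell from 16834 and 17242 to 9948 and 7456 (log2 fold change -0.98). Srebf1, which drives lipogenic genes, was called lower at -0.90, a call lost with WT as 1 sample, without KO replicate 2 and after scaling to the same total. The 1 gene called higher, Klf5, which is active early in differentiation, went from 10 and 21 to 60 and 92 normalized counts and lost its call with WT as 1 sample.

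Of 23 adipokine and secreted factor genes, 10 were lower and 3 higher. The adipsin gene Cfd fell from 44882 and 44048 to 19352 and 16577 normalized counts (log2 fold change -1.31). The resistin gene Retn fell from 16581 and 16083 to 6488 and 3463 (log2 fold change -1.78). The 3 members that rose included the stress cytokine gene Gdf15, from 163 and 172 to 1426 and 1088, and the meteorin-like gene Metrnl, from 277 and 284 to 936 and 814 (log2 fold changes 2.89 and 1.63). All 4 differences kept both KO libraries on the same side of both WT libraries.

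Caveola genes and imprinted genes linked to fat expansion fell with the identity genes. Of 11 caveola genes, 8 were lower and 1 higher, the same counts with WT as 1 sample and after scaling to the same total. Cav1, the structural caveolin of adipocytes, stood at 44067 and 43299 normalized counts in WT and at 18868 and 10595 in KO, a log2 fold change of -1.63 ± 0.25 SE. The cavin gene Ptrf fell from 63388 and 63986 to 32870 and 21439, a log2 fold change of -1.26 ± 0.22 SE. The dynamin-like ATPase gene Ehd2, found at the caveolar neck, fell by a log2 of 1.42, while its family member Ehd4 rose from 909 and 689 to 2693 and 3302. Of 20 imprinted and expansion genes 11 were lower and 3 higher (11 and 1 with WT as 1 sample, and 1 higher without WT replicate 2). Peg3, an imprinted zinc finger gene, fell from 10892 and 10711 to 2315 and 2355 (log2 fold change -2.21). The non-coding RNA gene Meg3 rose from 266 and 278 to 1200 and 1497 (log2 fold change 2.30).

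Fatty acid synthesis showed the deepest fall among the metabolic pathways. Of 19 de novo lipogenesis genes, 14 were lower and none higher, with a median log2 fold change of -1.66, and 13 were lower both with WT as 1 sample and after scaling to the same total. Scd1, the delta-9 desaturase, stood at 2602971 and 2567533 normalized counts in WT and at 501294 and 258238 in KO, a mean level 6.81-fold lower (log2 fold change -2.85 ± 0.41 SE, adjusted p = 0.00024). Fasn, fatty acid synthase, had 135080 and 138092 and 20503 and 9040, a mean level 9.25-fold lower (log2 fold change -3.33 ± 0.31 SE, adjusted p = 7.6e-06). The steps before Fasn fell less: Acly, which makes cytosolic acetyl-CoA, went from 14344 and 14930 to 5484 and 3834, and Acaca, which carboxylates it, from 10366 and 10204 to 3375 and 2208 (log2 fold changes -1.67 and -1.91). The elongase gene Elovl6, acting after Fasn, went from 1087 and 999 to 106 and 144 (log2 fold change -3.07). In all 5 genes the groups did not overlap, as in 69.6% of all genes tested. KO replicate 2 was the lower KO library in these genes, except Elovl6, where replicate 1 was lower. Acacb, whose product restrains fatty acid oxidation, had 6019 and 6015 in WT and 5905 and 4560 in KO and did not pass the test (log2 fold change -0.21 ± 0.34 SE).

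Most cholesterol synthesis genes were called lower, without their regulator among them. Of 22 genes 14 were lower and none higher (12 lower with WT as 1 sample, and 12 lower against 2 higher after scaling to the same total). Sc5d, a late desaturase of the pathway, fell from 4044 and 4131 to 663 and 406 normalized counts (log2 fold change -2.98 ± 0.21 SE). The lanosterol synthase gene Lss fell from 1204 and 1195 to 419 and 243 (log2 fold change -1.91). Hmgcs1, which acts at the start of the pathway, fell from 8013 and 8139 to 3586 and 1596 (log2 fold change -1.75). In these 3 genes the groups did not overlap. The regulator gene Srebf2 had 920 and 1093 in WT and 1316 and 1069 in KO. It did not pass the test as deposited, and after scaling to the same total it was called higher (log2 fold change 0.63).

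Triglyceride synthesis and storage genes were also lower in the main, with 10 of 16 synthesis genes lower and 1 higher, and 12 of 24 lipolysis and droplet genes lower and 2 higher. With WT as 1 sample these became 5 and 9 lower, and without KO replicate 2 they became 4 and 9. The synthesis count was 6 without WT replicate 1 and 5 without WT replicate 2. After scaling to the same total 6 synthesis genes were lower, and 10 lipolysis and droplet genes were lower against 4 higher. Dgat2, which adds the last fatty acid to triglyceride, fell from 39078 and 38200 to 11292 and 3792 normalized counts (log2 fold change -2.56 ± 0.38 SE). Pck1, which supplies the glycerol backbone, fell from 33457 and 33715 to 15662 and 10313 (log2 fold change -1.40 ± 0.22 SE). The phosphatidate phosphatase genes split, Lpin1 falling from 17212 and 17657 to 9734 and 4902 and Lpin2 rising from 335 and 305 to 1530 and 1360 (log2 fold changes -1.34 and 2.17). Hormone-sensitive lipase, encoded by Lipe, and the monoglyceride lipase gene Mgll fell by log2 values of 1.57 and 1.40. The call for Pnpla2, the gene of the lipase that starts triglyceride breakdown (35078 and 34158 against 24800 and 13093), was lost with WT as 1 sample and after scaling to the same total. The perilipins split as well: Plin4, found on adipocyte droplets, fell from 104094 and 104425 to 35869 and 17077 and Plin2, which coats droplets in most other cells, rose from 6149 and 5923 to 12004 and 9817 (log2 fold changes -2.07 and 0.85). Of 17 uptake genes 7 were lower and 1 higher as deposited but 2 were lower and 5 higher after scaling to the same total (none higher and 3 lower with WT as 1 sample, and 3, 2 and 3 lower without KO replicate 2, WT replicate 1 and WT replicate 2). The VLDL receptor gene Vldlr fell from 4470 and 4322 to 1791 and 1087 normalized counts (log2 fold change -1.65 ± 0.22 SE). The lipoprotein lipase gene Lpl was called lower (158090 and 157157 against 96940 and 55035), a call lost with WT as 1 sample and without KO replicate 2.

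**Figure D2:**
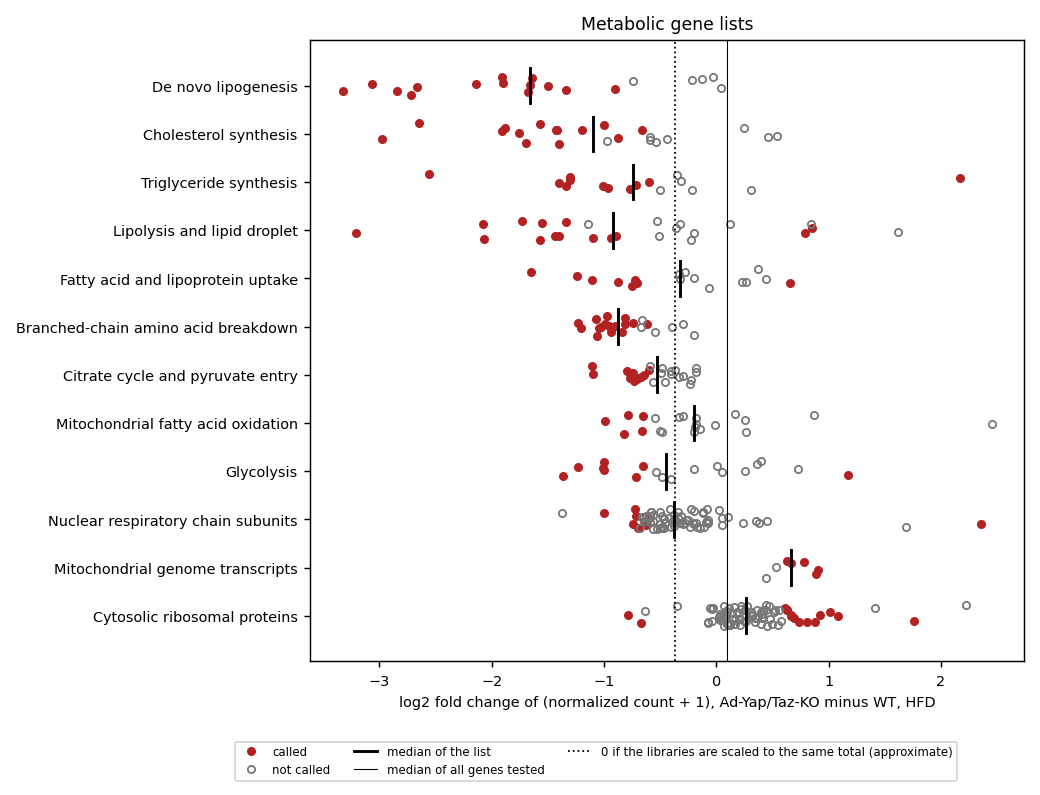
Log2 fold changes of the tested members of 12 metabolic gene lists (filled red, called; open grey, not called), KO minus WT on HFD on log2(normalized count + 1), with the median of each list as a thick bar, the median of all genes (0.095) as a thin line and the place of 0 after scaling to the same total as a dotted line. De novo lipogenesis and cholesterol synthesis lie furthest to the left, and mitochondrial genome transcripts lie to the right. Respiratory chain genes lie on the dotted line, and their few calls, 8 lower and 1 higher, become none lower and 2 higher under that scaling.

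Branched-chain amino acid breakdown, a fuel route typical of adipocytes, had most of its genes called lower as deposited. Of 22 breakdown genes 16 were lower and none higher, with a median log2 fold change of -0.87 (9 lower with WT as 1 sample, 10 without KO replicate 2, 8 without WT replicate 1 and 7 after scaling to the same total). Ivd, the dehydrogenase of the leucine branch, fell from 3405 and 3489 to 1828 and 1174 normalized counts, and Acadsb, that of the isoleucine branch, from 4765 and 4888 to 2820 and 1858 (log2 fold changes -1.23 ± 0.21 and -1.08 ± 0.19 SE). Bckdha, a subunit of the committed dehydrogenase, fell by a log2 of 0.97, a call lost after scaling to the same total, and the aminotransferase gene Bcat2 did not pass the test (1388 and 1339 against 1373 and 891).

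Of 24 citrate cycle and pyruvate genes 10 were lower, with 1 lower when WT counted as 1 sample and 2 after scaling to the same total. Leaving out 1 library moved this count from 19 (without KO replicate 1) to 1 (without KO replicate 2 or WT replicate 2), and it was 3 without WT replicate 1. The pyruvate dehydrogenase subunit gene Pdha1 kept its call both with WT as 1 sample and after scaling (5112 and 5142 against 2821 and 2033 normalized counts, log2 fold change -1.10). Of 77 nuclear respiratory chain genes 8 were lower (10.4%) and 1 higher (1.3%) as deposited, below the 15.1% and 17.1% of all genes. These calls were lost with WT as 1 sample, and after scaling to the same total none was lower and 2 were higher. Without KO replicate 1 the number lower was 29, without KO replicate 2 or WT replicate 2 it was 2, without WT replicate 1 none, and without KO SD replicate 1 13. Fatty acid oxidation (5 of 21 lower, none with WT as 1 sample, and 1 lower against 2 higher after scaling to the same total) and glycolysis (7 of 18 lower and 1 higher, 4 each way after scaling and 2 lower with WT as 1 sample) also depended on these choices. Without KO replicate 2, WT replicate 1 and WT replicate 2, none, none and 1 of the oxidation genes and 3, 4 and 2 of the glycolysis genes were lower. Mitochondrial genome transcripts went the other way, with 5 of 7 higher as deposited and 7 higher after scaling but none with WT as 1 sample, none without WT replicate 2 and 1 without KO replicate 2, for example mt-Cytb with 25120 and 21798 in WT and 40107 and 40168 in KO. Of 83 cytosolic ribosomal protein genes 13 were higher (15.7%) and 2 lower (2.41%), below the 17.1% and 15.1% of all genes. Fewer were higher with WT as 1 sample, without KO replicate 2 and without either WT library. After scaling to the same total 43 were higher and none lower, so their count depends on the scaling. They also share sequence with many pseudogenes.

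Insulin signalling genes included more lower than higher members, at 15 and 5 of 32 (11 and 4 with WT as 1 sample, 7 and 6 after scaling to the same total, and 3 higher without WT replicate 2). Slc2a4, which encodes the insulin-responsive glucose transporter GLUT4, fell from 2015 and 2055 to 1058 and 604 normalized counts (log2 fold change -1.35 ± 0.24 SE, adjusted p = 0.0011). Tusc5, a regulator of GLUT4 traffic, fell from 23067 and 23446 to 9757 and 4099 (log2 fold change -1.88). The insulin receptor gene Insr was called lower as deposited (6028 and 6309 against 3509 and 3374) and not after scaling to the same total, and Irs2 did not pass the test (7587 and 7699 against 7364 and 5489). The 5 members that rose included Akt1 (1164 and 1197 against 2063 and 1902), Tbc1d1 (596 and 573 against 1282 and 1298), Pik3r3 and Ptpn1, and the log2 fold change of Akt1 was 0.75.

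Stress and rhythm lists were mixed. Of 20 hypoxia-response genes 8 were lower and 1 higher (6 lower with WT as 1 sample, 5 lower against 4 higher after scaling to the same total). Among them the angiogenic factor gene Vegfa fell from 7013 and 6835 to 3378 and 2717 normalized counts (log2 fold change -1.19). NRF2 target genes were 7 lower and 4 higher of 24, a majority that turned to 4 lower and 6 higher after scaling to the same total (3 higher and 4 lower with WT as 1 sample, and 4 lower without either WT library). Me1 and Pgd, whose enzymes make NADPH, fell from 9643 and 10011 to 4050 and 1716 and from 7626 and 7941 to 4305 and 2147. The cystine transporter gene Slc7a11 rose from 87 and 66 to 483 and 489, and the thioredoxin reductase gene Txnrd1 from 2778 and 2926 to 5481 and 5881. The log2 fold changes of these 4 genes were -1.90, -1.36, 2.66 and 0.99. Of 19 clock genes 6 were lower and 4 higher, which turned to 3 lower and 6 higher after scaling to the same total (2 higher and 4 lower with WT as 1 sample, and 2 higher without KO replicate 2 or WT replicate 1). The repressor genes Cry2 (2961 and 2940 against 1370 and 1069) and Per2 (1365 and 1613 against 574 and 612) were lower under both scalings. Of 15 thermogenic genes 3 were higher (20%) and 1 lower (6.67%), near or below the shares of all genes (17.1% and 15.1%). Ucp1, the uncoupling protein gene of brown fat, had 24 and 16 in WT and 55 and 28 in KO and did not pass the test. The creatine genes Ckb (709 and 633 against 2642 and 2143) and Slc6a8 (293 and 309 against 1610 and 1240) rose by log2 values of 1.83 and 2.23.

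Markers of other cell types were examined in the isolated adipocytes, and macrophage markers were among those that rose. Of 22 macrophage markers 16 were higher and none lower, with a median log2 fold change of 3.86, and the same counts held with WT as 1 sample and after scaling to the same total. Their summed level was 4634 and 4642 normalized counts in WT against 41830 and 39639 in KO, and no defining marker was at 0. Adgre1, which encodes the macrophage marker F4/80, had 73 and 90 in WT and 3314 and 3178 in KO, a mean level 39.8-fold higher (log2 fold change 5.31 ± 0.25 SE, adjusted p = 4.1e-08). The endosomal marker gene Cd68 had 143 and 201 and 3183 and 3020, and Csf1r, the receptor for macrophage colony-stimulating factor, had 287 and 284 and 3461 and 3441 (log2 fold changes 4.18 and 3.59). The KO libraries differed far less from each other in these genes than from WT. Other members of the list, known from resident macrophages, did not pass the test, with KO libraries far apart in some. They were Timd4 (13 and 12 against 3 and 59), Lyve1 (83 and 84 against 81 and 163), Cd163 (148 and 234 against 120 and 432) and Mertk (1238 and 1291 against 986 and 1195).

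Lipid-associated macrophages, which surround dying adipocytes, are marked by a set of lipid-handling genes. Of 22 such markers 16 were higher and 1 lower (14 and 1 with WT as 1 sample), with a summed level of 84056 and 82202 normalized counts in WT against 170799 and 120829 in KO. Gpnmb, a glycoprotein of lipid-laden macrophages, had 121 and 186 in WT and 27083 and 16118 in KO, a mean level 141-fold higher (log2 fold change 7.11 ± 0.31 SE). Itgax, which encodes CD11c, had 67 and 52 in WT and 1237 and 896 in KO (log2 fold change 4.13 ± 0.31 SE). The tetraspanin gene Cd9 had 190 and 84 in WT and 962 and 974 in KO (log2 fold change 2.93). The 1 lower member, the phosphatase gene Acp5 (3526 and 4103 against 2488 and 1323), lost its call without WT replicate 2. The markers Apoe (21951 and 20540 against 18726 and 11939) and Ctsb (24143 and 24328 against 38201 and 28844), which adipocytes also express, did not pass the test.

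Other immune markers were mostly low. Mast cell markers were higher in 5 of 6 tested members, also with WT as 1 sample, but 4 of the 5 were at 0 in both WT libraries and reached the mean of 5 through other libraries. With a mean of at least 50 required, 1 was higher. The carboxypeptidase gene Cpa3 was listed at 0 in both WT libraries and at 108 and 48 normalized counts in KO. The protease gene Mcpt4 was listed at 0 in WT and at 41 and 38 in KO. Of 16 tested T and NK cell markers 6 were higher and none lower (2 with WT as 1 sample, and 2 without either KO library or without WT replicate 2). The defining T cell gene Cd3e had 0 and 4 in WT and 9 and 6 in KO and did not pass the test. Il7r, a receptor of lymphocytes and some myeloid cells, had 6 and 4 and 737 and 576 (log2 fold change 6.79 ± 0.55 SE). Of 10 B and plasma cell markers 2 were higher (20%) and 1 lower (10%), near the 17.1% and 15.1% of all genes. Cd79a, a part of the B cell receptor, went from 7 and 10 to 40 and 65, a call lost without KO replicate 2. The immunoglobulin gene Ighm went from 8027 and 8008 to 4186 and 919, a call lost with WT as 1 sample. Neutrophil and monocyte markers (4 of 11 higher) included Csf3r (5 and 0 against 64 and 49), whereas S100a8 had 7 and 11 in WT and 1 and 1 in KO. Dendritic cell markers (22.2% of 9 higher and 11.1% lower, also near the shares of all genes) included Clec10a (60 and 48 against 566 and 708), and the defining members Flt3, Zbtb46 and Xcr1 did not pass the test.

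Stromal and vascular markers were counted next. Of 17 fibroblast and progenitor markers 10 were higher and 2 lower (9 and 1 with WT as 1 sample), with a summed level of 34814 and 35128 normalized counts in WT against 44638 and 45189 in KO. Pdgfra, the receptor that marks adipocyte progenitors, had 402 and 455 and 2789 and 3960, and the proteoglycan gene Dcn had 3307 and 3488 and 9717 and 13120 (log2 fold changes 2.96 ± 0.22 and 1.73 ± 0.20 SE). Another defining member, Dpp4, had 61 and 29 in WT and 37 and 72 in KO and did not pass the test. Endothelial markers were higher in 6 of 18 members and lower in none, but in 1 with WT as 1 sample and 13 after scaling to the same total. Leaving out 1 library moved this count from none (without WT replicate 1) to 13 (without KO replicate 1), with 1 without KO replicate 2 or WT replicate 2 and 10 without either KO SD library. Pecam1, the endothelial adhesion gene, had 3800 and 4095 in WT and 5640 and 8935 in KO. Pericyte and smooth muscle markers split evenly (3 of 12 each way, 1 higher and 2 lower with WT as 1 sample, and 1 higher without KO replicate 2 or WT replicate 1), with Pdgfrb rising (794 and 907 against 1981 and 2503) and the smooth muscle actin gene Acta2 falling (2230 and 2048 against 408 and 787). Mesothelial (1 higher and 1 lower of 9), red blood cell (2 of 6 higher) and skeletal muscle markers (1 higher and 2 lower of 6) were few. The mesothelial shares (11.1% each way) lay below the 17.1% and 15.1% of all genes. With WT as 1 sample the skeletal muscle calls, the lower mesothelial call and a part of the red blood cell calls were lost. The counts of these lists also changed with the library left out. Wt1 rose (46 and 54 against 310 and 531), while Upk3b, Ckm and Mylpf did not pass the test. The 1 tested epididymal marker, Rnase10, had 3 and 8 in WT and 21 and 26 in KO and did not pass the test.

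**Figure D3:**
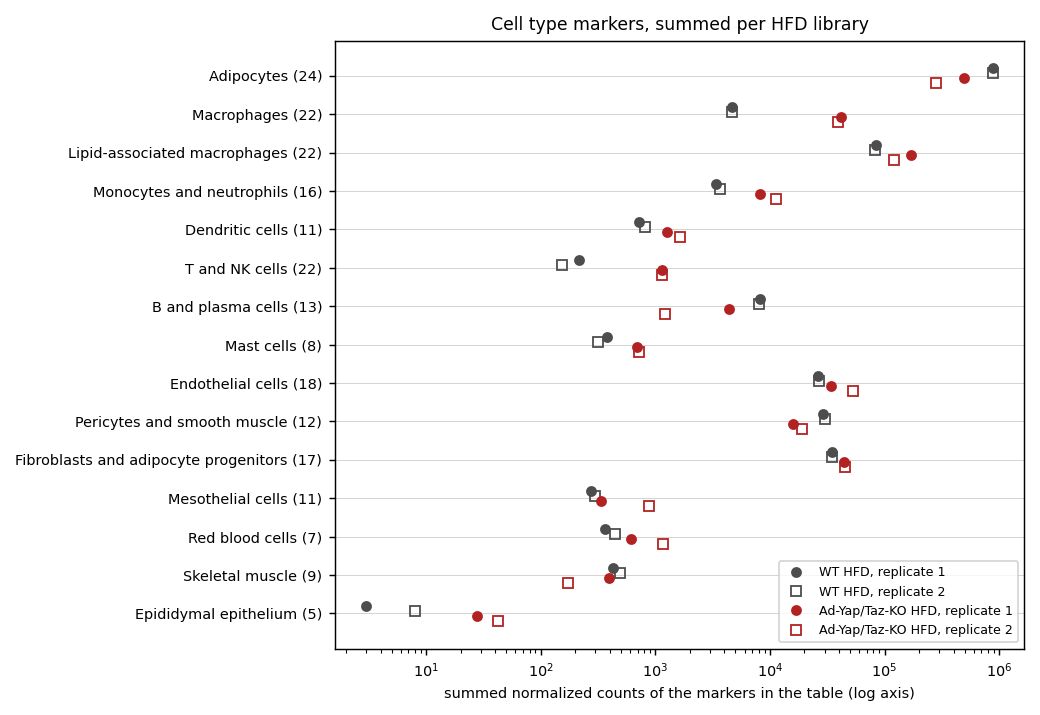
Summed normalized counts (log axis) of the markers of 15 cell types in each HFD library (grey, WT; red, KO; filled circles, replicate 1; open squares, replicate 2), with the number of markers in the table in brackets. The adipocyte sum falls from 884926 and 879164 in WT to 497687 and 280434 in KO and the macrophage sum rises from 4634 and 4642 to 41830 and 39639.

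Lysosomal genes moved unevenly, and most were not called higher. Of 38 lysosomal hydrolase and membrane genes 18 were higher and 5 lower, and of 20 proton pump genes 7 were higher and 2 lower (14 and 5, and 5 and 1, with WT as 1 sample). Without KO replicate 1 the pump genes gave 5 higher and 4 lower. Psap, which encodes the saposin precursor, rose from 12871 and 12884 to 32083 and 24489 normalized counts (log2 fold change 1.12 ± 0.18 SE). Lipa, the acid lipase that frees cholesterol and fatty acids from lipoproteins, rose from 934 and 869 to 5660 and 4732 (log2 fold change 2.52 ± 0.18 SE). The cathepsin gene Ctss, typical of antigen-presenting cells, rose from 297 and 266 to 9124 and 8034 (log2 fold change 4.92). Subunits of the pump present in most cells rose less, Atp6v1a from 1778 and 1885 to 4156 and 3386 and Atp6v1b2 from 1561 and 1605 to 3398 and 2975 (log2 fold changes 1.03 and 1.01). Atp6v0e2 fell from 571 and 600 to 202 and 86. Among the hydrolases, the sphingomyelinase gene Smpd1 (1343 and 1484 against 740 and 378), the glucosidase gene Gaa (2149 and 1966 against 1060 and 880) and the cholesterol carrier gene Npc2 (5864 and 5716 against 2907 and 2061) fell. The macrophage marker sum (4634 and 4642 in WT, 41830 and 39639 in KO, 16 of 22 markers higher) moved with these rises, and its part in them was not tested.

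The factors that coordinate lysosomal genes recognise TCACGTGA, so the same promoter windows were searched for these letters, which read alike on both strands. They stood in 4 of 32 hydrolase windows (12.5%) and in 3 of 17 pump windows (17.6%), against 1.12% of all genes with a window. Of the genes with a match, Atp6v1a, Ctsa and Gla were higher and Atp6v0e was lower in KO, and the others did not pass the test. The 60 bases around the letters are shown in the same way for a pump and a hydrolase gene that were higher.
Atp6v1a (chr16:44139358-44139417, minus strand): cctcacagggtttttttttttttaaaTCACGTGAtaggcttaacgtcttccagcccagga
Gla (chrX:134601196-134601255, minus strand): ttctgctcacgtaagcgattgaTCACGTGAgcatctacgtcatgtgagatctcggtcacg
Gla encodes the galactosidase that clears glycolipids, and it stood at 152 and 125 normalized counts in WT and at 765 and 705 in KO (log2 fold change 2.41 ± 0.23 SE, adjusted p = 7.1e-06). Ctsa, the protective protein for other hydrolases, had 1272 and 1559 and 3590 and 3083 (log2 fold change 1.24).

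Many genes of inflammatory ligands and their receptors were higher. Of 28 tested chemokine genes 13 were higher and none lower (10 higher with WT as 1 sample). Of 37 TNF family genes 14 were higher and 2 lower, and of 53 interleukin and receptor genes 23 were higher and 6 lower (8 and 15 higher with WT as 1 sample, and the same numbers without KO replicate 2). Without WT replicate 2, 9 TNF family genes were higher and 3 interleukin and receptor genes lower. Tnf stood at 429 and 504 normalized counts in WT and at 7136 and 5139 in KO, and Il1b had 88 and 126 and 1951 and 1469 (log2 fold changes 3.70 ± 0.23 and 3.99 ± 0.35 SE). The neutrophil attractant gene Cxcl2 had 942 and 1007 and 8899 and 7751, and the macrophage chemokine gene Ccl9 had 308 and 324 and 3630 and 3806 (log2 fold changes 3.09 and 3.55). Ccl2, the main monocyte attractant of fat tissue, had 2420 and 2463 in WT and 2198 and 2986 in KO and did not pass the test (log2 fold change 0.07 ± 0.19 SE, adjusted p = 0.81). Cxcl1 did not pass the test either (12804 and 12686 against 17134 and 14660). Members that fell included Il7, a cytokine made by stromal cells (284 and 316 against 64 and 38, log2 fold change -2.58), and the death receptor gene Fas.

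Sensors and antigen presentation rose together with them. Of 27 Toll-like receptor and inflammasome genes 20 were higher and 1 lower, and of 15 MHC class II pathway genes 12 were higher and none lower (19 and 11 higher with WT as 1 sample). Nlrp3, the inflammasome sensor, rose from 202 and 160 to 2359 and 2171 normalized counts (log2 fold change 3.65 ± 0.26 SE). Tlr2 rose from 340 and 300 to 1346 and 1214 (log2 fold change 2.0 ± 0.17 SE), while Tlr4 had 396 and 349 in WT and 314 and 331 in KO and did not pass the test. The flagellin receptor gene Tlr5 was the member that fell (209 and 177 against 20 and 30). Cd74, the invariant chain of class II, rose from 651 and 664 to 4383 and 4342 and H2-Ab1, a class II beta chain, from 484 and 445 to 3136 and 3289 (log2 fold changes 2.73 and 2.79). Class I genes were split, 6 of 18 higher and 3 lower, with the light chain gene B2m falling from 20665 and 20709 to 10249 and 8585 and the heavy chain genes H2-K1 and H2-D1 not passing the test. Class I heavy chain genes share near-identical stretches, so counts split between them are uncertain.

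NF-kappaB, interferon and complement genes were also counted. Of 24 NF-kappaB genes 9 were higher and 2 lower (15 and 1 after scaling to the same total). The subunit gene Nfkb1 rose from 2451 and 2391 to 6876 and 7126 normalized counts (log2 fold change 1.53), and Ikbkg, which encodes the regulatory subunit of the kinase, fell from 1080 and 1196 to 547 and 372 (log2 fold change -1.33). Of 31 interferon-induced genes 14 were higher and 2 lower (10 and none with WT as 1 sample). Oasl1 rose from 141 and 116 to 2723 and 2467 and the RNA sensor gene Ifih1 from 1033 and 1218 to 4863 and 5178 (log2 fold changes 4.33 and 2.16). Complement genes split, 11 of 23 being higher and 6 lower. The central component C3 rose from 8220 and 8611 to 25894 and 39632 (log2 fold change 1.93), and C1qb, made mainly by macrophages, from 125 and 119 to 3199 and 2358 (log2 fold change 4.48). C4b fell from 20496 and 20466 to 7820 and 4138 and Cd59a, which protects cells from complement, from 3500 and 3652 to 615 and 322 (log2 fold changes -1.85 and -3.0). In all immune lists the macrophage marker sum was 4634 and 4642 in WT and 41830 and 39639 in KO, and its part in these rises was not tested.

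Cell death genes moved in both directions. Of 24 BCL2 family genes 7 were higher and 5 lower (4 and 3 with WT as 1 sample, 3 and 3 without KO replicate 2, and 4 and 3 higher without WT replicates 1 and 2). Bcl2l11, which encodes the BH3-only killer BIM, stood at 541 and 438 normalized counts in WT and at 1886 and 2031 in KO (log2 fold change 2.01 ± 0.18 SE). The survival gene Bcl2 had 726 and 658 in WT and 224 and 301 in KO (log2 fold change -1.41 ± 0.22 SE). Other survival members, Mcl1 (9721 and 9816 against 12371 and 13917) and Bcl2l1 (563 and 537 against 688 and 684), did not pass the test, and the mitophagy gene Bnip3 fell from 4421 and 3905 to 1517 and 1242 (log2 fold change -1.6). Of 22 caspase and lytic death genes 6 were higher and 3 lower (11 and 2 after scaling to the same total). The apoptosome gene Apaf1 rose from 285 and 246 to 668 and 838 (log2 fold change 1.5), and the necroptosis kinase gene Ripk3 from 142 and 138 to 550 and 698 (log2 fold change 2.14). The membrane rupture gene Ninj1 rose from 315 and 254 to 714 and 602 and the pore gene Gsdmd from 39 and 45 to 241 and 337 (log2 fold changes 1.21 and 2.74). The necroptosis effector Mlkl (425 and 514 against 678 and 449) did not pass the test. The macrophage marker sum rose from 4634 and 4642 in WT to 41830 and 39639 in KO, and its part in the rises of these genes was not tested.

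The p53 target list was divided, with 8 of 26 higher and 9 lower, and turned to 10 higher and 6 lower after scaling to the same total (3 higher and 5 lower with WT as 1 sample, and 3 higher without KO replicate 2 or either WT library). Mdm2, the ligase that restrains p53, rose from 1437 and 1633 to 4628 and 4842 normalized counts and the polo kinase gene Plk2 from 1811 and 1853 to 5533 and 5609 (log2 fold changes 1.63 ± 0.15 and 1.6 ± 0.18 SE). Phlda3, which restrains AKT, fell from 3678 and 3793 to 1338 and 472 and Sesn2 from 1291 and 1238 to 662 and 395 (log2 fold changes -2.23 and -1.30). ER stress genes were 6 higher and 6 lower of 23 as deposited but 9 higher and none lower after scaling to the same total (6 higher and 3 lower with WT as 1 sample, and 3 and 2 lower without KO replicate 2 and WT replicate 1). The phosphatase subunit gene Ppp1r15a rose from 4428 and 4136 to 7890 and 9385 and Atf3 from 2650 and 2546 to 4412 and 4665 (log2 fold changes 1.01 and 0.80). By contrast Hspa5, the main chaperone of the response, did not pass the test (27234 and 27854 against 34059 and 37087). Immediate-early genes, which also respond to tissue dissociation, were 6 higher (22.2%) and 5 lower (18.5%) of 27, near the 17.1% and 15.1% of all genes. After scaling to the same total 11 were higher and 1 lower. Fewer were called with WT as 1 sample, and fewer were lower without WT replicate 2. Nr4a3 rose from 706 and 720 to 1920 and 2749 and Fos was called lower as deposited but not at the same total (19366 and 19717 against 11036 and 10875). Egr1 did not pass the test (22005 and 21189 against 16300 and 19635).

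Cell cycle genes were higher, in 23 of 32 members with 2 lower (20 and 1 with WT as 1 sample, 17 and 1 without KO replicate 2), at a median log2 fold change of 1.73. Mki67, a marker of dividing cells, stood at 369 and 408 normalized counts in WT and at 3796 and 4226 in KO (log2 fold change 3.36 ± 0.21 SE, adjusted p = 2.6e-07). The topoisomerase gene Top2a had 140 and 138 and 652 and 752, and the replication clamp gene Pcna had 570 and 580 and 1214 and 1410 (log2 fold changes 2.32 and 1.18). The members called lower were the D-type cyclin genes Ccnd2 and Ccnd3 (9582 and 9656 against 7281 and 4287 and 790 and 714 against 412 and 406), both lost after scaling to the same total, and Ccnd2 also with WT as 1 sample. Mature adipocytes do not divide as a rule, and which cells carry these transcripts was not tested. The marker sums of macrophages (4634 and 4642 in WT, 41830 and 39639 in KO) and fibroblasts (34814 and 35128 in WT, 44638 and 45189 in KO) moved with these genes and with the matrix genes described next, and their part in either was not tested.

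Of 37 tested collagen genes 15 were higher and 6 lower (14 and 5 with WT as 1 sample). Fibrillar collagens were among those that rose. Col1a1 stood at 4131 and 4189 normalized counts in WT and at 19039 and 18472 in KO (log2 fold change 2.17 ± 0.26 SE). Col3a1 had 13083 and 13180 in WT and 35507 and 39287 in KO (log2 fold change 1.51 ± 0.21 SE). Among the collagen VI chains, which form the microfibrils around adipocytes, Col6a5 rose from 784 and 882 to 13956 and 20276 and Col6a3 from 7741 and 7951 to 14936 and 14930. In the same family Col6a1 (13782 and 13346 against 11579 and 12655) and Col6a2 (10463 and 10384 against 10666 and 10432) did not pass the test. Basement membrane collagens were called lower as deposited, Col4a1 at 46528 and 46829 against 29423 and 29173 and Col4a2 at 35029 and 35719 against 20602 and 18457 (log2 fold changes -0.67 and -0.86), yet neither call held at the same total, Col4a1 also lost its call with WT as 1 sample, and quantile normalization brought them to 0.05 and 0.00.

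Genes of laminins and other basement membrane proteins moved both ways. Of 23 laminin and basement membrane genes 10 were lower and 6 higher (8 and 4 with WT as 1 sample), a majority that became 7 each way after scaling to the same total and 4 lower against 7 higher after quantile normalization. The perlecan gene Hspg2 fell from 42093 and 43490 to 14943 and 18104 normalized counts and the nidogen gene Nid1 from 35139 and 36002 to 16427 and 15159 (log2 fold changes -1.38 and -1.17). Of the laminin genes, Lama4, typical of adipocytes, fell from 8656 and 8749 to 4405 and 3991 (log2 fold change -1.05). Lama2, typical of muscle and stromal cells, rose from 1324 and 1261 to 4276 and 5785 (log2 fold change 1.94). Crosslinking and matricellular genes were 17 higher and 6 lower of 37. The fibronectin gene Fn1 rose from 2775 and 2901 to 6600 and 9338 and the periostin gene Postn from 1454 and 1394 to 5166 and 7421 (log2 fold changes 1.47 and 2.12). The thrombospondin gene Thbs1 fell from 41687 and 40914 to 14404 and 13346 and the collagen chaperone gene Serpinh1 from 11187 and 11351 to 4301 and 3791 (log2 fold changes -1.57 and -1.48). Fibroblast markers moved with the members that rose (10 of 17 higher, summed level 34814 and 35128 in WT and 44638 and 45189 in KO), and their part was not tested.

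Matrix proteases and their inhibitors included strong rises and strong falls, with 24 of 52 higher and 5 lower (19 and 4 with WT as 1 sample). Mmp2, the gelatinase of stromal cells, stood at 294 and 365 normalized counts in WT and at 3659 and 4228 in KO (log2 fold change 3.58). Mmp14, its activator, had 378 and 415 in WT and 2587 and 2687 in KO (log2 fold change 2.73), and the inhibitor gene Timp2 had 1049 and 1140 and 7005 and 8111 (log2 fold change 2.78). The aggrecanase gene Adamts5 fell from 24069 and 23763 to 2431 and 2345, and the inhibitor gene Timp4, abundant in adipose tissue, from 4078 and 4050 to 309 and 506 (log2 fold changes -3.32 ± 0.25 and -3.36 ± 0.26 SE). No KO library overlapped WT in any of these genes, as in 69.6% of all genes tested. The fibroblast and macrophage marker sums given above moved with the members that rose, and their part was not tested.

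Integrin and cytoskeleton genes moved both ways. Of 28 integrin genes 15 were higher and 5 lower (11 and 5 with WT as 1 sample). The leukocyte integrin gene Itgb2 rose from 144 and 147 to 3476 and 2863 normalized counts and the fibronectin receptor gene Itga5 from 1142 and 1466 to 5509 and 5388 (log2 fold changes 4.43 and 2.07). The laminin receptor genes fell, Itga6 from 7581 and 7531 to 3426 and 3307 and Itga7 from 4735 and 4750 to 2126 and 1091 (log2 fold changes -1.17 and -1.64). Of 43 actin and myosin cytoskeleton genes 16 were higher and 8 lower (10 and 7 with WT as 1 sample). Rock2, a kinase that drives contraction, fell from 11892 and 12290 to 4544 and 5263 and caldesmon, encoded by Cald1, from 7179 and 7023 to 2932 and 3005 (log2 fold changes -1.31 and -1.26). Actb (41139 and 41491 against 47664 and 43316) and Myh9 (12354 and 12163 against 16191 and 17860) did not reach the limits for a call. The macrophage marker sum (4634 and 4642 in WT, 41830 and 39639 in KO) moved with the integrin genes that rose, and its part in them was not tested.

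**Figure D4:**
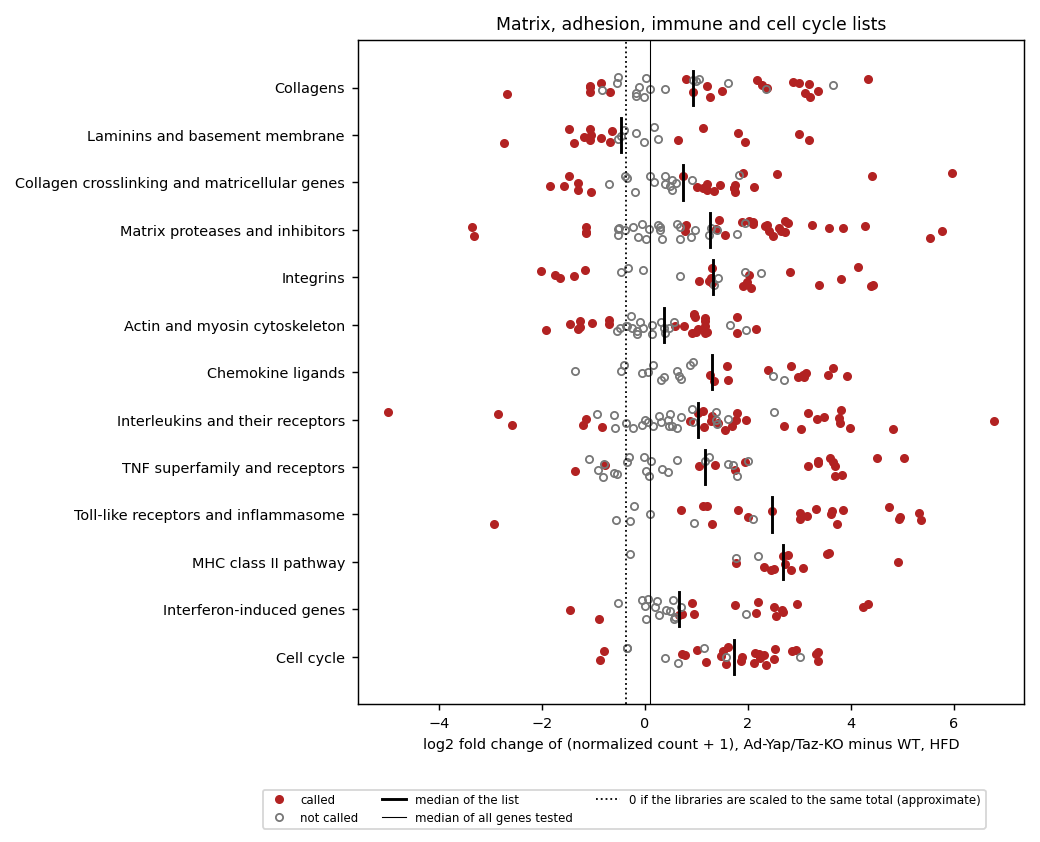
Log2 fold changes of the tested members of 13 matrix, adhesion, immune and cell cycle lists (filled red, called; open grey, not called), KO minus WT on HFD on log2(normalized count + 1), with the median of each list as a thick bar, the median of all genes (0.095) as a thin line and the place of 0 after scaling to the same total as a dotted line. Cell cycle, Toll-like receptor and MHC class II lists lie to the right of both lines, and the basement membrane list reaches to both sides, its majority turning after quantile normalization.

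Signalling families of ligands, receptors and inhibitors held members of both directions. In the WNT family 7 of 42 tested genes were higher (16.7%) and 9 lower (21.4%), against 17.1% and 15.1% of all genes. The majority turned to 12 higher and 7 lower after scaling to the same total, and 4 were higher without KO replicate 2. The receptor gene Fzd4 fell from 13670 and 13895 to 3399 and 2577 normalized counts and the coreceptor gene Lrp5 from 2564 and 2951 to 1243 and 1408 (log2 fold changes -2.22 ± 0.20 and -1.06 ± 0.15 SE). The secreted inhibitors split. Sfrp5, made by adipocytes, fell from 3632 and 3956 to 39 and 26 (log2 fold change -6.85), whereas Sfrp1 rose from 107 and 92 to 345 and 666 (log2 fold change 2.26). Among the ligands Wnt5a fell from 659 and 668 to 216 and 289 (log2 fold change -1.41).

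In the TGF-beta and BMP family 17 of 57 genes were higher and 14 lower, and the order became 12 higher and 13 lower after quantile normalization and 11 higher and 11 lower with WT as 1 sample, with 11 higher also without KO replicate 2. The ligand gene Tgfb1 rose from 761 and 791 to 2212 and 2602 normalized counts (log2 fold change 1.63), and so did the receptor gene Tgfbr2, from 1334 and 1341 to 2254 and 2812 (log2 fold change 0.91). On the BMP side the receptor gene Bmpr1a fell from 3192 and 3532 to 1371 and 1323 and the target gene Id3 from 3451 and 3605 to 1339 and 1059 (log2 fold changes -1.32 and -1.57). Acvr1c, an activin-type receptor gene of adipocytes, fell from 6349 and 6318 to 3600 and 1881 (log2 fold change -1.28). Of 58 FGF, PDGF, EGF and VEGF family genes 9 were higher (15.5%) and 13 lower (22.4%), against 17.1% and 15.1% of all genes, which turned to 13 higher and 9 lower after scaling to the same total (5 higher and 9 lower with WT as 1 sample, and 5 higher without KO replicate 2). Fgf1, a growth factor of fat tissue, fell from 1943 and 1885 to 301 and 265 and the decoy receptor gene Fgfrl1 from 6231 and 6296 to 2276 and 1260 (log2 fold changes -2.76 and -1.89). The coreceptor gene Nrp2 rose from 1465 and 1666 to 5980 and 6235 (log2 fold change 1.97).

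Transporters and retinoid genes were divided as well. Of 26 amino acid transporter genes 9 were higher and 6 lower. Slc1a5, a glutamine carrier, fell from 26681 and 26706 to 6506 and 4611 normalized counts and the small neutral amino acid carrier gene Slc7a10 from 4906 and 5341 to 2488 and 1132 (log2 fold changes -2.28 and -1.61). The taurine transporter gene Slc6a6 rose from 1382 and 1131 to 6972 and 6803 (log2 fold change 2.46). Of 20 retinoid genes 7 were higher and 4 lower (4 and 3 with WT as 1 sample, and 4 and 2 without KO replicate 2 or WT replicate 2). The retinol carrier gene Rbp4 fell from 7546 and 7574 to 1942 and 618 and the retinal dehydrogenase gene Aldh1a1 from 5805 and 5392 to 1262 and 1161 (log2 fold changes -2.79 ± 0.39 and -2.21 ± 0.21 SE). Its relative Aldh1a3 rose from 108 and 104 to 251 and 547 (log2 fold change 1.8).

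Finally, the protein-coding genes with the largest changes were taken from all genes called with a mean of at least 500 and no overlap between the groups, which 69.6% of all genes tested showed by itself. The 12 largest rises were Gpnmb, Atp6v0d2, Mmp12, Adam8, Hk3, Adgre1, Rgs1, Clec12a, Cd84, Hpgds, Ahnak2 and Nckap1l. Atp6v0d2, a pump subunit of osteoclasts and macrophages, stood at 43 and 54 normalized counts in WT and at 4624 and 4428 in KO, a mean level 93.3-fold higher (log2 fold change 6.52 ± 0.26 SE). The macrophage elastase gene Mmp12 had 87 and 76 in WT and 5782 and 3497 in KO, a mean level 56.9-fold higher (log2 fold change 5.77 ± 0.27 SE). Hk3, the hexokinase of myeloid cells, had 32 and 24 and 1395 and 966, and Hpgds, which makes prostaglandin D2, had 82 and 33 and 2070 and 1774 (log2 fold changes 5.34 and 5.17). Most of these 12 genes are known from macrophages and other leukocytes, whose marker sum moved with them as given above.

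The 12 largest falls were Oxtr, Sfrp5, Bmp3, Npr3, Sncg, Nnat, Mest, Lep, Cdsn, Pkp2, D430019H16Rik and Synpo2. Oxtr, the oxytocin receptor gene, stood at 3870 and 3771 normalized counts in WT and at 12 and 9 in KO (log2 fold change -8.39 ± 0.95 SE). Npr3, the clearance receptor for natriuretic peptides, had 57132 and 57253 and 1331 and 1358, a mean level 42.5-fold lower, and Bmp3, a BMP family antagonist, had 2021 and 2073 and 41 and 35, 53.9-fold lower. Mest, an imprinted gene that follows fat mass expansion, had 8231 and 8586 and 214 and 306 and its imprinted companion Nnat 9019 and 9292 and 214 and 328 (log2 fold changes -5.03 ± 0.20 and -5.11 ± 0.23 SE). Lep, the leptin gene, was the member with the widest gap between the KO libraries, at 7257 and 1545 against 72885 and 73642 in WT (log2 fold change -4.45 ± 0.52 SE, adjusted p = 4e-05). Sncg, a synuclein of adipocytes and neurons, had 23722 and 23424 and 751 and 568, and the junction genes Cdsn and Pkp2 had 2843 and 3039 against 256 and 73 and 3190 and 3153 against 209 and 157. All 24 genes kept their call with WT as 1 sample.

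**Figure D5:**
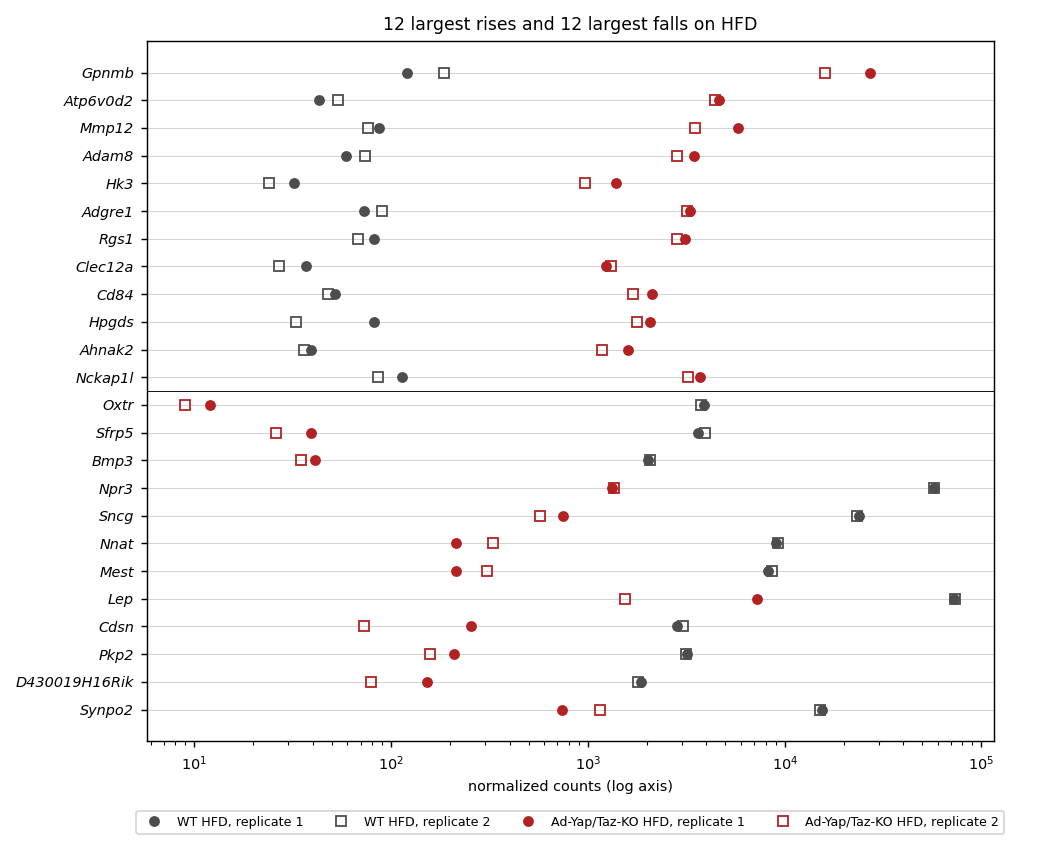
Normalized counts (log axis) of the 12 largest rises (above the line) and 12 largest falls (below it) in each HFD library (grey, WT; red, KO; filled circles, replicate 1; open squares, replicate 2). The groups are apart by more than the distance between replicates in every gene, and the KO libraries lie furthest apart in Lep (7257 and 1545 normalized counts).

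Whether these differences on HFD exceeded those on SD was tested as the interaction of genotype and diet, which called 17.4% of all genes. The 24 genes had been chosen for their HFD difference, which is a part of the interaction, so a larger difference on HFD is favoured by that choice and the count of them is a description. Of the 24 genes 19 were called, each in the direction of its HFD difference, and 11 remained called with WT HFD as 1 sample. All 12 rises were larger on HFD, for example Adgre1, whose log2 fold change was 5.31 on HFD and 3.04 on SD. Among the falls, Lep had a log2 fold change of -4.45 on HFD and -0.72 on SD, and Sfrp5 had -6.85 and -2.0. For Oxtr and Nnat, by contrast, the log2 fold changes were -8.39 and -5.11 on HFD and -7.67 and -4.85 on SD respectively. The difference between the diets did not pass the test for either (differences -0.72 ± 1.35 and -0.26 ± 0.33 SE, adjusted p = 0.74 and 0.62).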

How the data were processed

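Reads of ribosome-depleted total RNA were sequenced from 1 end. Per the labels and methods, the authors trimmed them (Reaper), mapped them to GRCm38 (STAR 2.5.2b) and counted them per gene (featureCounts 1.5.1). The strand setting of the counting is not given in the sources used here. The deposited values are a score: the authors scaled the gene counts of each library by a size factor of its own and rounded the result. They are called normalized counts here, and no count test was run on them.

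Values were tested as log2(value + 1) with limma 3.58.1 (R 4.3.3, group means, eBayes with trend) over all 8 libraries in 4 groups, which shared 4 residual degrees of freedom (8.59 prior). P-values were adjusted by Benjamini-Hochberg over the 18800 genes whose mean reached 5. Fold changes are on the log2(value + 1) scale, which understates those of low genes. In simulated data with 200 changed genes the fit called 147 of them, with 0 in the wrong direction, and 10 unchanged genes. The simulation gave all libraries the same spread, so it does not cover the unequal spread of these groups. Groups came from the labels. Per the study, each group had 2 mice, but the WT HFD libraries lay so close together that they may not be separate samples. Depth was estimated from the steps of the values.

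Members and lists were chosen with earlier results of these data known, and lists are described by counts and medians without a test. Named genes were the 12 largest rises and falls among protein-coding genes called with a mean of 500 or more and no overlap of the groups. To these were added up to 4 called members per direction and list with the highest mean, the defining markers, Yap1 and Wwtr1, and further list members given as called or not. Alternatives covered the pseudocount, the filter, the scaling, the samples and shrinkage in the fit, a replicate block, GC content and length, the limits for a call, and each library left out. Figures were drawn with matplotlib 3.10.9. Some genes of the lists are not reported here.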

Additional observations from a re-analysis of the deposited data

Results flagged for a closer look

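For 19 of the 24 genes with the largest changes, the size of the difference between KO and WT was greater under HFD than under SD (interaction test in limma), and each is listed for that reason. The genes were chosen for their HFD difference, which enters the interaction, so the choice favours this direction and the number is no independent support. Values are the log2 fold change on HFD minus that on SD, with the Benjamini-Hochberg adjusted p. Among the rises the difference was 2.34 for Gpnmb (adjusted p = 0.0072), 1.64 for Atp6v0d2 (0.013), 1.70 for Mmp12 (0.013), 1.41 for Adam8 (0.012), 2.57 for Hk3 (0.0033) and 2.26 for Adgre1 (0.0038). It was 1.99 for Rgs1 (0.0034), 2.24 for Clec12a (0.0070), 1.61 for Cd84 (0.0076), 2.04 for Hpgds (0.035), 1.73 for Ahnak2 (0.013) and 2.08 for Nckap1l (0.0030). These 12 genes also rose on SD, by log2 fold changes of 2.77 (Hk3) to 4.89 (Atp6v0d2).

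Among the falls the difference was -4.85 for Sfrp5 (adjusted p = 0.0029), -2.54 for Bmp3 (0.017), -1.57 for Npr3 (0.014), -2.51 for Mest (0.0014), -3.73 for Lep (0.0079), -3.52 for Cdsn (0.0049) and -2.11 for Synpo2 (0.0052). Lep and Cdsn had log2 fold changes of -0.72 and -0.90 on SD, neither past the test there. With the WT HFD libraries counted as 1 sample, 11 of the 19 remained called, and Lep (0.052), Adam8 (0.059), Ahnak2 (0.061), Atp6v0d2 (0.062), Mmp12 (0.067), Npr3 (0.074), Hpgds (0.079) and Bmp3 (0.084) missed the adjusted p of 0.05.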

How the results depend on the processing

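The 6053 genes called (3213 higher, 2840 lower) became 3445 (1914 and 1531) when the WT HFD pair was averaged into 1 sample, and 3032 (1746 and 1286) under stricter limits (adjusted p up to 0.01, log2 fold change 1 or more). Equal totals left 1367 lower, and 14 instead of 26 lists with more members lower. Leaving out 1 library gave 3629 to 6383 genes called, 1850 to 3419 higher and 1562 to 3148 lower: without KO HFD replicate 2 there were 3682 (1850 and 1832), without WT HFD replicate 2 3629 (2067 and 1562), and without WT HFD replicate 1 1710 lower. In these fits the lone library is assumed to vary like the other groups. Over the libraries left out, 33 to 38 lists had more members higher (36 in all), 24 to 28 more lower, and 9 to 12 cell type lists more higher (10 in all), and all 24 genes with the largest changes kept their call. The interaction was called for 19 of these, and for 11 with WT as 1 sample. Of 454 named genes tested, 403 called, 2 changed direction, Col4a1 (0.05) and Col4a2 (0.00) under quantile normalization. The number that lost their call was 133 under the stricter limits, 100 with WT as 1 sample, 98, 80 and 81 without WT HFD replicate 2, WT HFD replicate 1 and KO HFD replicate 2, 67 at the same total, 73 under quantile normalization, 54 with no filter on low values and 31 with GC content and length taken out. Other causes were not tested. Genotypes and diets share replicate numbers, and deviations of same-numbered libraries correlated at -0.11 to 0.04. With 2 libraries a group, these correlations cannot tell whether same-numbered libraries were handled together. With the replicate block 5706 genes were called (3033 higher and 2673 lower). In that fit 37 lists had more members higher and 25 more lower, and 11 cell type lists had more higher. All 24 genes with the largest changes kept their call, and the interaction was called for 19 of them. With 2 libraries a group, rounded values and an estimated depth of 14 to 22.3 M reads, genes near the mean of 5 are the least certain.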
